A study of Mus musculus with 6 samples.

Results

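The vascular endothelial growth factor (VEGF) and angiopoietin system was described across 10 genes, chosen by name from the 54232 genes of the count table. They are 6 ligand genes (Vegfa, Vegfb, Vegfc, Vegfd, Angpt1 and Angpt2) and 4 genes for receptor tyrosine kinases (Kdr, Flt1, Flt4 and Tek). RNA-seq compared primary uterine stromal cells of WT mice with those of conditional Pbrm1 knockout mice (Pbrm1 cKO), with 3 libraries in each group. Pbrm1 encodes a bromodomain subunit of a SWI/SNF chromatin remodeling complex. The study describes the knockout as Pbrm1 fl/fl with Cre expressed from the progesterone receptor locus (PR-IRES-cre), which also acts in the uterine epithelium and the corpus luteum. It describes the controls as Pbrm1 fl/fl, so both groups would carry the floxed alleles, whereas the labels call the controls WT. The mice were 8 to 12 weeks old. Uteri were taken on day 4, which the labels give as a day of pregnancy after mating in 1 place and as pseudopregnancy in another. Between 5 and 10 uterine horns went into a preparation, and the digested cells were plated for 4 h and kept in fresh medium for another 2 h before RNA was taken, so transcript levels are those of briefly cultured cells. The study describes its sequencing replicates as biological, and the labels do not say which animals or cultures each library came from.

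VEGF-A is the main growth factor of blood vessel endothelium and signals through KDR (VEGFR2). FLT1 (VEGFR1) binds VEGF-A and VEGF-B tightly and, largely as a decoy, limits how much VEGF-A reaches KDR. VEGF-C and VEGF-D signal through FLT4 (VEGFR3), best known from lymphatic vessels, and VEGF-C after proteolytic processing also through KDR. ANGPT1 activates the receptor TEK (TIE2) and steadies vessels, and ANGPT2, stored and released by endothelium, competes with it. In the uterus around implantation the stroma is a source of ligands, whereas the receptors are carried mostly by the endothelial cells of the vessel bed that surrounds the implantation site.

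Total counts ranged from 13253575 to 18338667 per library. Pairs of replicates differed by 4.4 to 9.73 times counting noise in WT and by 1.57 to 2.8 times in Pbrm1 cKO. This is the median chi-square over genes with at least 50 counts in a pair, relative to counting noise alone. The spread thus differed between the groups, whereas DESeq2 fitted 1 spread per gene to both. Pbrm1, the targeted gene, had 1354, 1385 and 1677 normalized counts in WT, against 397, 459 and 451 in Pbrm1 cKO, which follows the labels. Stromal genes were abundant. The defining markers Pdgfra, Vim and Dcn reached at least 2515 normalized counts in every library, and the 13 stromal markers together made up 3064 to 3729 TPM in WT and 2638 to 2974 TPM in Pbrm1 cKO (a unit that scales counts to transcript length and to the library). Transcripts of other cell types were present as well. The 14 blood endothelial markers summed to 78.6, 231 and 202 TPM in WT replicates 1 to 3 and to 88.4, 93.1 and 80.6 TPM in Pbrm1 cKO, with no defining marker at 0. WT replicate 1 therefore stood apart from the other WT libraries: 13 of the 14 endothelial markers were there at less than 50% of the mean of WT replicates 2 and 3. The 10 leukocyte markers summed to 456, 960 and 977 TPM in WT and to between 4761 and 4829 TPM in Pbrm1 cKO, and 8 of the 9 that could be tested were higher in Pbrm1 cKO. Results on the receptors are given with and without WT replicate 1 for this reason, a choice made after the values were seen among the planned removals of single libraries.

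Of the 10 genes, Vegfa rose and Vegfc fell in Pbrm1 cKO cells under every setting tried, and Flt1 was lower at the edge of the threshold. Vegfa and Vegfc are shown by the 250 bases before their annotated start because they are the 2 members whose call was kept throughout and they moved in opposite directions. RefSeq start sequences (GRCm38.p6) were matched for 8 of the 10 members, not for Angpt1 and Angpt2. Both sequences are written 5′ to 3′ on the strand of the gene, in lower case, with every match to the letters GGGCGG (a GC box, the element that Sp1-type factors recognize) on either strand in capitals. Vegfa lies on the minus strand at chr17:46032378-46032627 and Vegfc on the plus strand at chr8:54077282-54077531. The RefSeq start bases of Vegfc and Flt4 were not found in a GENCODE transcript. The Vegfc window ends at 54077531, before the start of the counted gene at 54077606. The Flt4 window (49609429 to 49609678) lies inside the counted gene, which starts at 49609263.
Vegfa: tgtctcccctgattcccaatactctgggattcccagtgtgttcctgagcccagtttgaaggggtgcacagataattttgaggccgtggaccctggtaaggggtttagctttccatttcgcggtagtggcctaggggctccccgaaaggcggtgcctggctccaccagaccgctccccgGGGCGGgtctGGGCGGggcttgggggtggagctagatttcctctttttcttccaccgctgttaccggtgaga
Vegfc: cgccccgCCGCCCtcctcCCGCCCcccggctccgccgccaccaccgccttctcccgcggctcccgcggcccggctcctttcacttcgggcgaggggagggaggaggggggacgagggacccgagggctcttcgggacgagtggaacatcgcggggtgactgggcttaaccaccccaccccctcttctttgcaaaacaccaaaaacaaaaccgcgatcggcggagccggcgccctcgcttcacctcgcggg

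Each of the 2 windows held 2 matches to GGGCGG, close to the annotated start in Vegfa and at the far end of the window in Vegfc. Among the 8 matched members, 6 (Vegfa, Vegfb, Vegfc, Kdr, Flt1 and Flt4) held the letters, as did 32.7% of the 250-base windows of all 32851 RefSeq start entries. The windows of Tek and Vegfd did not hold them. ACGTG, the core of the hypoxia response element, was absent from the windows of all 8 and present in 16.6% of all windows, and CATCTG, an E-box that bHLH factors can recognize, was found in the window of Kdr alone and in 14.4% of all windows. No match overlapped another. RefSeq holds another start for Vegfa within the gene, whose window contained 1 match to ACGTG and 1 to GGGCGG. The windows of Vegfa, Vegfc and Flt1 were 59.2%, 71.6% and 70.4% G and C, against a median of 52.4% over all entries. These matches describe the letters of the windows only.

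Levels of different genes were compared per transcript length, in TPM. On this scale Pbrm1 cKO stood higher relative to WT than in normalized counts, also for the sums of markers. Flt4, for example, had mean values of 1.70 TPM in WT and 1.90 TPM in Pbrm1 cKO, against 74.39 and 72.15 normalized counts. Fold changes between the groups are therefore those of normalized counts. Vegfa was the most abundant member in every library, at 144 ± 29.6 TPM in WT, compared with 305 ± 16.3 TPM in Pbrm1 cKO (SD, n = 3 each), above 96.6% of the tested genes. In WT it was followed by Vegfc (43.1 ± 12.7 TPM), Angpt2 (18.2 ± 10.3) and Kdr (9.87 ± 4.43). The ranges of Angpt2 and Kdr over the 3 WT libraries overlapped, as did those of Kdr and Vegfb (6.29 ± 1.79), of Vegfb and Tek (4.14 ± 2.85), of Tek and Flt1 (3.74 ± 1.19) and of Flt4 (1.70 ± 0.266) and Vegfd (1.19 ± 0.512). The order of those neighbours is not separated by the WT libraries. In Pbrm1 cKO, Angpt2 (15.7 ± 1.85 TPM) came after Vegfa, and Vegfc (9.66 ± 0.502) had moved down to the level of Vegfb (9.90 ± 0.860), with overlapping ranges. Kdr followed at 8.49 ± 0.577 TPM. Angpt1 was the least abundant member in both groups, at 0.355 ± 0.173 TPM in WT and 0.0925 ± 0.0692 in Pbrm1 cKO. The 6 ligands together made up 185 to 241 TPM in WT and 326 to 362 TPM in Pbrm1 cKO, and the 4 receptors 9.45 to 24.6 and 14.7 to 17.2 TPM. Ligand transcripts thus outnumbered receptor transcripts in every library.

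**Figure D1:**
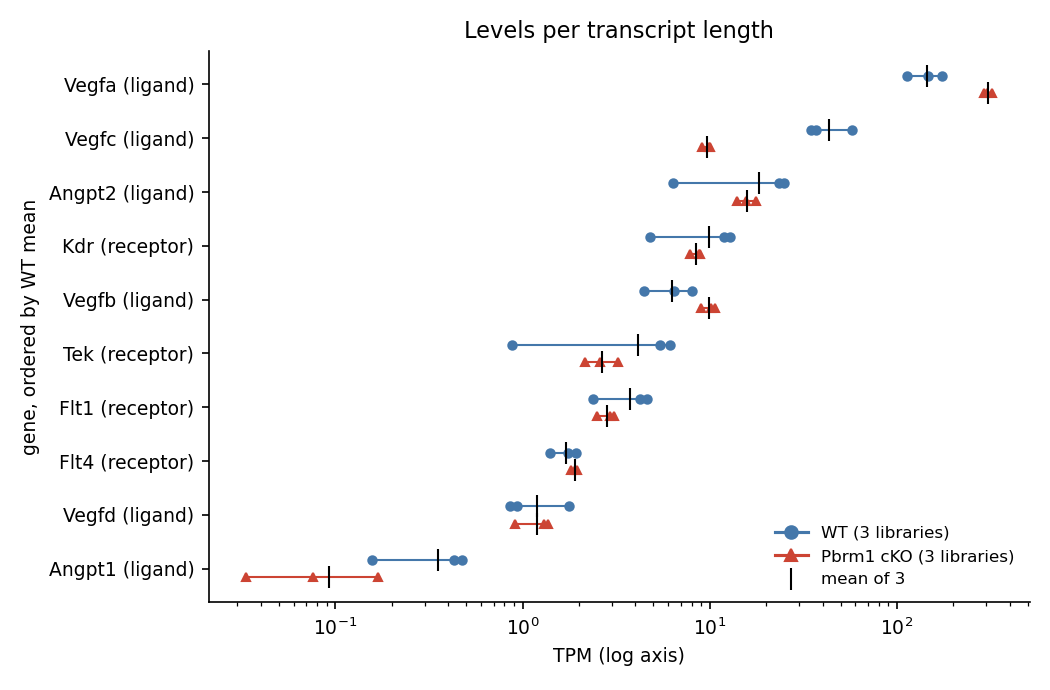
TPM (log axis) of the 6 ligand and 4 receptor genes, ordered by the WT mean, with 1 point per library, a bar from the lowest to the highest and a black tick at the mean of 3. Vegfa leads in both groups, and Vegfc moves from the rank after Vegfa in WT (43.1 TPM) to the level of Vegfb in Pbrm1 cKO (9.66 TPM).

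The study compared the genotypes to learn what loss of Pbrm1 changes in stromal transcription at the time of implantation. All 10 members could be tested, with Benjamini-Hochberg adjustment over the 17471 genes that DESeq2 tested. At an adjusted p below 0.05, 1 member was higher (Vegfa) and 2 were lower (Vegfc and Flt1), where 15.9% of all tested genes were higher and 15.2% lower. The median log2 fold change was -0.43 over the 10 members and -0.00060 over all tested genes. The libraries of the groups did not overlap in normalized counts for 4 members (Vegfa, Vegfb, Vegfc and Angpt1), nor for 48.6% of all tested genes. Counts of calls among the members were therefore close to those of the transcriptome, and the values of single genes carry the result.

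**Figure D2:**
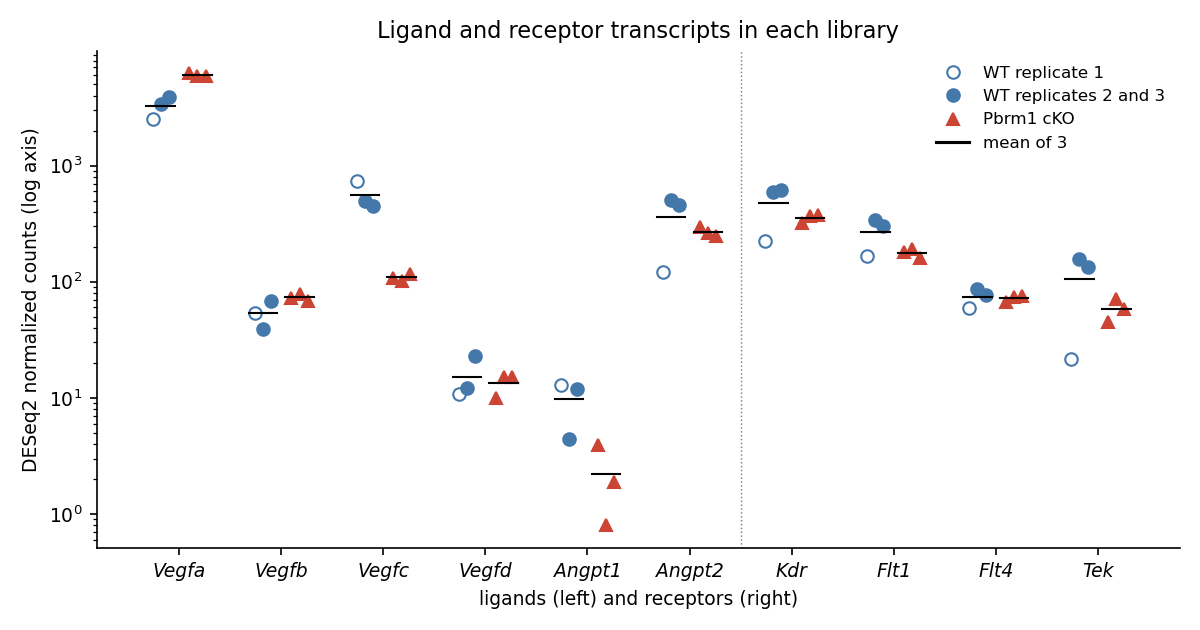
DESeq2 normalized counts (log axis) of the 10 members in each library, with WT replicate 1 as an open circle, the other WT libraries as filled circles, Pbrm1 cKO as triangles and black bars at the means of 3. Vegfa and Vegfc separate the groups, and for Angpt2, Kdr and Tek WT replicate 1 lies below all Pbrm1 cKO libraries while WT replicates 2 and 3 lie above them.

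Vegfa (chromosome 17, 46016993 to 46032369, GRCm38, minus strand, protein-coding) had 2517, 3404 and 3925 normalized counts in WT, against 6229, 5927 and 5962 in Pbrm1 cKO. Every Pbrm1 cKO library was above every WT library, and the Pbrm1 cKO libraries were within a few percent of each other (coefficient of variation 2.74%, against 21.7% in WT). The level rose 1.84-fold (log2 fold change 0.88, SE 0.15, DESeq2 adjusted p = 4.69e-08). Without WT replicate 1, the lowest library, the log2 fold change was 0.72 (SE 0.089, adjusted p = 2.23e-14). The call was kept under all 14 alternatives, with log2 fold changes between 0.72 and 1.03. Leukocyte markers, which rose strongly in the same libraries as given above, and 4 of the 11 epithelial markers were also higher in Pbrm1 cKO. Their summed level was 212 to 327 TPM in WT and 379 to 393 TPM in Pbrm1 cKO for the epithelial list, and no defining marker of either list was at 0 in all libraries. The study isolated the cells by digestion and plating and reports them as mostly stromal by staining for vimentin and cytokeratin. Both cell types can express Vegfa, and their part in its rise was not tested. In bulk samples, a change in the number of cells of a type and a change in RNA per cell cannot be told apart.

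Vegfc (chromosome 8, 54077606 to 54187096, plus strand) had 731, 493 and 452 normalized counts in WT, against 108, 102 and 117 in Pbrm1 cKO. The groups were far apart, and the lowest WT library was well above the highest Pbrm1 cKO library. The mean of Pbrm1 cKO was 19.6% of the WT mean (log2 fold change -2.35, SE 0.21, DESeq2 adjusted p = 2.82e-28). Vegfc was highest in WT replicate 1, at 155% of the mean of the other WT libraries, the library with the lowest endothelial marker sum. Without that library the log2 fold change was -2.11 (SE 0.17, adjusted p = 8.45e-34), and over the 14 alternatives it lay between -2.49 and -2.11 with the call kept. Of the 13 stromal markers, 8 were lower and 1 was higher in Pbrm1 cKO, with a median log2 fold change of -0.56. Among all tested genes, 15.2% were lower and 15.9% higher. The defining markers did not move together, and none was at 0. Pdgfra was higher (log2 fold change 0.23, DESeq2 adjusted p = 0.0216), Vim was lower (-0.27, adjusted p = 0.0124) and Dcn did not pass (-0.19, adjusted p = 0.233). The part of stromal cell number in the lower level of Vegfc was not tested.

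The other VEGF ligands did not pass the test. Vegfb (chromosome 19, 6982473 to 6987651, minus strand), a ligand of FLT1, had 53.4, 38.8 and 68.1 normalized counts in WT, against 73.0, 78.3 and 68.5 in Pbrm1 cKO. The groups did not overlap, by less than 1 normalized count, and the log2 fold change was 0.45 (SE 0.29, 95% interval -0.11 to 1.02, DESeq2 adjusted p = 0.24). With libraries weighted by their spread in limma voom, an alternative added after the data were seen, it was 0.66 (adjusted p = 0.0239). Vegfd (X chromosome, 164373378 to 164402650, plus strand), the other FLT4 ligand, had 10, 11 and 21 raw counts in WT, against 10, 19 and 16 in Pbrm1 cKO. The groups overlapped fully (log2 fold change -0.18, SE 0.56, adjusted p = 0.858), and the 95% interval of -1.28 to 0.91 leaves room for changes of more than 2-fold in the downward direction. Of the 2 ligands of FLT4, the abundant one thus fell and the rare one was not resolved at this depth.

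Among the angiopoietins, Angpt1 was barely detected. Angpt1 (chromosome 15, 42424723 to 42676977, minus strand) had 12, 4 and 11 raw counts in WT, against 4, 1 and 2 in Pbrm1 cKO, 27 and 7 counts in all. After scaling to library size the groups did not overlap (12.8, 4.44 and 11.9 against 3.95, 0.799 and 1.88 normalized counts). The log2 fold change of -2.18 (SE 0.96, DESeq2 adjusted p = 0.0692) missed the threshold. Over the removals of single libraries it ran from -2.89 to -1.75, and the threshold was not passed (adjusted p from 0.0594 to 0.256). A noncoding model gene on the opposite strand overlaps Angpt1, and the counting used strand.

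Angpt2 (chromosome 8, 18690263 to 18741562, minus strand) had 121, 502 and 458 normalized counts in WT, against 293, 265 and 246 in Pbrm1 cKO. WT replicate 1 was below all Pbrm1 cKO libraries and the other WT libraries were above them. The log2 fold change over all 6 libraries was -0.43 (SE 0.59, 95% interval -1.58 to 0.72, DESeq2 adjusted p = 0.652). Without WT replicate 1 it was -0.84 (SE 0.15, adjusted p = 1.51e-07), and the test was not passed without any other single library, with -0.12 without WT replicate 2 and -0.22 without WT replicate 3 (adjusted p = 0.933 and 0.86). Angpt2 lies on the opposite strand to Mcph1, which overlaps it.

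The balance of the 2 angiopoietins was taken as the ratio of their counts per kb of transcript. Angpt2 exceeded Angpt1 in every library, 12.8-, 142- and 52.1-fold in WT and 93.2-, 312- and 148-fold in Pbrm1 cKO. The ranges of the groups overlapped. The mean log2 ratio was 5.51 ± 1.74 in WT, compared with 7.35 ± 0.878 in Pbrm1 cKO (SD, n = 3 each), a difference of 1.84 (exact two-sided permutation test, p = 0.2, where 3 against 3 libraries cannot go below 0.1). Over the removals of single libraries it ran from 0.92 (WT replicate 1 left out) to 2.66 (WT replicate 2 left out). The size of the ratio rests on a gene with at most 12 counts per library.

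The receptors varied in how they stood in WT replicate 1. Tek, Kdr, Flt1 and Flt4 were there at 14.6%, 37.1%, 51.9% and 73.3% of the mean of the other WT libraries, and the endothelial marker sum at 36.3%. Among the VEGF ligands, Vegfd was at 61.2%, Vegfa at 68.7%, Vegfb at 99.9% and Vegfc at 155%, so the ranges of receptors and ligands on this measure overlapped. Kdr (chromosome 5, 75932827 to 75978458, minus strand) had 223, 588 and 616 normalized counts in WT, against 318, 368 and 377 in Pbrm1 cKO. As with Angpt2, WT replicate 1 was the lowest library and the other WT libraries were the highest. The log2 fold change was -0.43 over all libraries (SE 0.44, 95% interval -1.30 to 0.44, DESeq2 adjusted p = 0.532) and -0.76 without WT replicate 1 (SE 0.14, adjusted p = 2.55e-07). It moved the other way, to -0.25 and -0.20, without WT replicate 2 or 3 (adjusted p = 0.807 and 0.82). Weighting libraries by their spread in limma voom gave -0.53 (adjusted p = 0.0343).

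Flt1 (chromosome 5, 147561604 to 147726011, minus strand) had 167, 340 and 303 normalized counts in WT, against 179, 190 and 161 in Pbrm1 cKO. WT replicate 1 lay within the range of Pbrm1 cKO and the other WT libraries lay above it. The log2 fold change was -0.61 (SE 0.24, DESeq2 adjusted p = 0.0425). This call depended on the libraries and the tool. It was firmer without WT replicate 1 (-0.86, SE 0.17, adjusted p = 5.1e-06). It was lost without WT replicate 2, WT replicate 3 or any 1 of the Pbrm1 cKO libraries (adjusted p from 0.0992 to 0.291) and in edgeR's quasi-likelihood test (adjusted p = 0.0601). The counts cover the whole gene, so the soluble and the membrane form of FLT1 were not told apart.

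Tek (chromosome 4, 94739289 to 94874976, plus strand) varied most among the WT libraries, with 21.4, 158 and 135 normalized counts, against 45.4, 70.3 and 58.2 in Pbrm1 cKO. WT replicate 1 was far below the other WT libraries. Over all libraries the log2 fold change was -0.85 (SE 0.78, 95% interval -2.38 to 0.67, DESeq2 adjusted p = 0.46), and without WT replicate 1 it was -1.33 (SE 0.27, adjusted p = 8.82e-06). It was -0.43 without WT replicate 2 (adjusted p = 0.68) and -0.41 in limma voom (adjusted p = 0.639).

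Flt4 (chromosome 11, 49609263 to 49652739, plus strand) was the receptor with the smallest difference. It had 59.9, 86.6 and 76.8 normalized counts in WT, against 67.1, 74.3 and 75.1 in Pbrm1 cKO. All Pbrm1 cKO libraries lay inside the WT range (log2 fold change -0.042, SE 0.25, 95% interval -0.54 to 0.46, DESeq2 adjusted p = 0.931). Without WT replicate 1 the log2 fold change was -0.18 (SE 0.27, adjusted p = 0.681). Prox1, the defining lymphatic endothelial marker, was near the detection limit at 5.34 to 16.2 normalized counts in WT and 12.8 to 18.8 in Pbrm1 cKO, and 4 of the 5 lymphatic markers had counts, with no defining marker at 0. None of these 4 passed the test over all libraries, and 1 was lower without WT replicate 1. It was Lyve1, named after its values were seen, with 27.8, 41.1 and 34.6 normalized counts in WT, against 16.8, 19.2 and 16.9 in Pbrm1 cKO (log2 fold change -0.96, SE 0.40, DESeq2 adjusted p = 0.0526, and -1.10 with adjusted p = 0.0485 without WT replicate 1). The lymphatic markers summed to 2.25 to 3.50 TPM in WT and 2.42 to 2.74 TPM in Pbrm1 cKO.

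**Figure D3:**
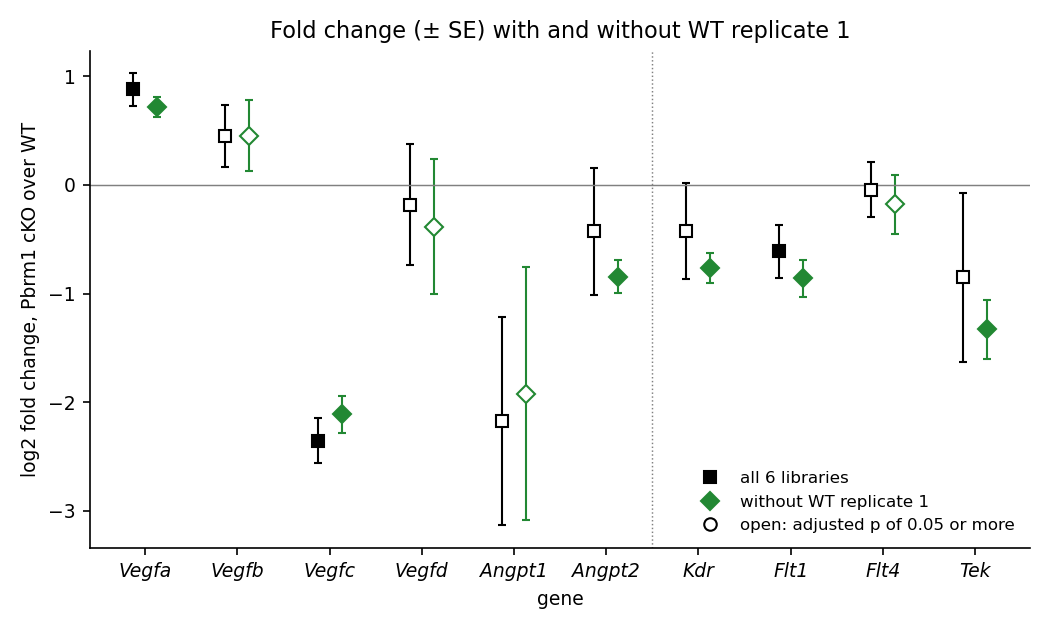
Log2 fold change of Pbrm1 cKO over WT (± SE, DESeq2) for the 10 members with all 6 libraries (black squares) and without WT replicate 1 (green diamonds), filled where the adjusted p was under 0.05. Vegfa and Vegfc change little with the library left out, whereas Angpt2, Kdr and Tek pass the threshold only without it and Flt1 passes in both.

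Without WT replicate 1, 1 member was higher (Vegfa) and 5 were lower (Vegfc, Angpt2, Kdr, Flt1 and Tek), where 17.6% of 16105 tested genes were higher and 16.4% lower. The median log2 fold change of the members was then -0.80, against 0.014 over all tested genes. Pbrm1 cKO was at 58.8%, 55.0% and 39.6% of the mean of WT replicates 2 and 3 for Kdr, Flt1 and Tek, and at 55.8% for Angpt2. WT replicate 1 was the lowest WT library for each of these genes and was singled out after its values were seen. A lower fold change without it was therefore bound to follow, and these percentages are not separate support for a fall. Over all 6 libraries Angpt2, Kdr and Tek did not pass (DESeq2 adjusted p = 0.652, 0.532 and 0.46).

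The calls of the blood endothelial markers depended on WT replicate 1 as well. Over all 6 libraries, 3 of the 14 blood endothelial markers (Cdh5, Egfl7 and Emcn) were lower and 1 (Vwf) was higher, with a median log2 fold change of -0.77. Without WT replicate 1, 11 were lower and 1 was higher, with a median of -1.23. Egfl7, Emcn and Vwf are named after their values were seen. Pecam1, an adhesion protein that defines endothelium, had 137, 825 and 638 normalized counts in WT, against 298, 332 and 262 in Pbrm1 cKO, the same arrangement of libraries as Kdr and Tek. Cdh5, the cadherin of endothelial junctions, was an exception. It had 774, 712 and 677 normalized counts in WT, against 190, 192 and 201 in Pbrm1 cKO, so WT replicate 1 was not low. The log2 fold change of Cdh5 was -1.89 (SE 0.13, DESeq2 adjusted p = 2.4e-46), and -1.84 without WT replicate 1. Cldn5, the third defining marker, had 4.28 to 15.5 normalized counts in WT and 4.79 to 10.8 in Pbrm1 cKO.

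Mural cells, which surround capillaries and are a source of ANGPT1, did not show 1 arrangement across their markers. Their defining markers Rgs5 (103, 570 and 574 normalized counts in WT, against 159, 191 and 173 in Pbrm1 cKO) and Kcnj8 (12.8, 53.3 and 59.4 against 15.8, 14.4 and 14.1) were low in WT replicate 1 as well. Of the 8 mural markers, 5 were lower and 2 higher without WT replicate 1, and 1 was lower and 1 higher with all libraries. Their summed level was 292 to 306 TPM in WT and 341 to 402 TPM in Pbrm1 cKO, with no defining marker at 0. Unlike Rgs5 and Kcnj8, Angpt1 was as high in WT replicate 1 (12 raw counts) as in WT replicate 3 (11).

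**Figure D4:**
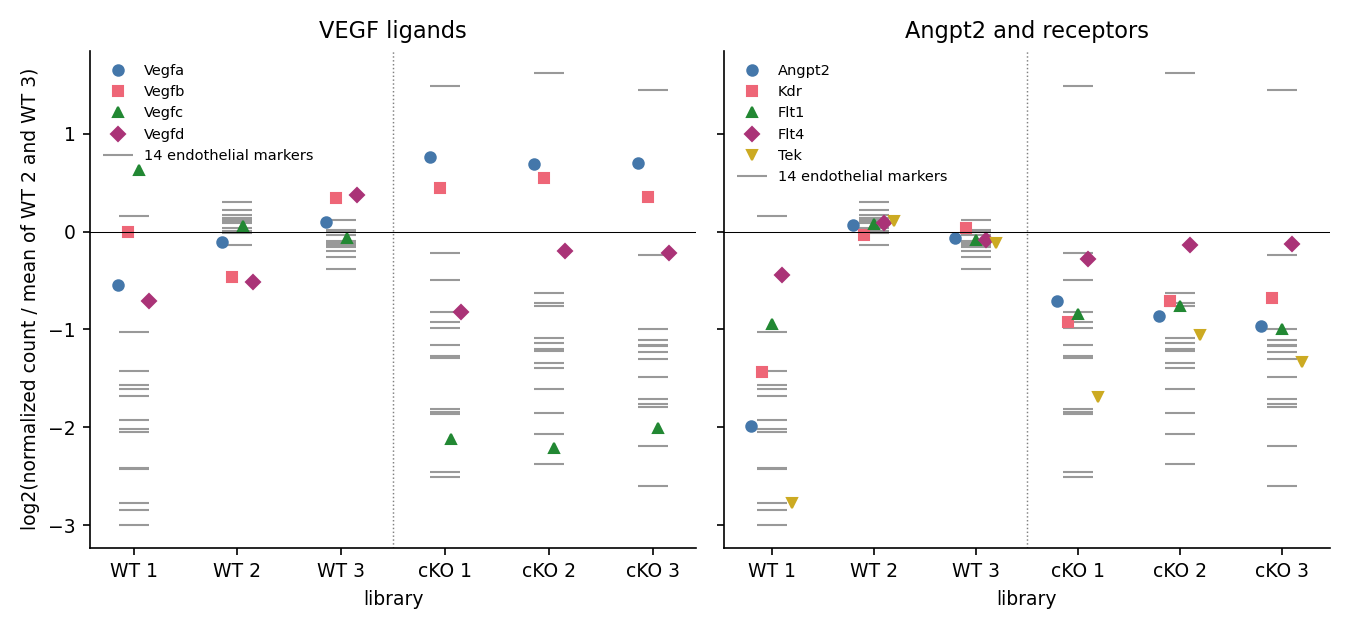
Normalized counts in each library relative to the mean of WT replicates 2 and 3 (log2) for the VEGF ligands (left) and for Angpt2 and the receptors (right), with the 14 blood endothelial markers as grey dashes in both panels. In WT replicate 1, Tek, Angpt2 and Kdr lie among the 13 markers that are low there, the other genes shown lie above those 13, and Cdh5 is the marker that is not low, and in Pbrm1 cKO Vegfa rises above 0 while Vegfc is near the lowest markers.

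A share of the 4 receptors relative to the 14 endothelial markers was computed per library as the ratio of summed counts per kb. It was 0.120, 0.107 and 0.120 in WT and 0.166, 0.184 and 0.195 in Pbrm1 cKO. All Pbrm1 cKO libraries were above all WT libraries, and WT replicate 1 did not stand apart on this scale. The mean log2 ratio rose from -3.11 ± 0.099 to -2.46 ± 0.117 (SD, n = 3 each), a difference of 0.65 (exact two-sided permutation test, p = 0.1, the smallest value that 3 against 3 libraries can give, so the threshold cannot be reached). The difference was 0.68 without WT replicate 1. Without Cdh5 in the marker sum, an alternative added after the data were seen, the ratio was 0.219, 0.123 and 0.141 in WT and 0.188, 0.206 and 0.223 in Pbrm1 cKO. The groups then overlapped through WT replicate 1, which was above the other WT libraries and within the range of Pbrm1 cKO (difference in log2 ratio 0.39, exact permutation p = 0.3). Leaving out both Cdh5 and WT replicate 1 gave a difference of 0.64, with both WT libraries below all Pbrm1 cKO libraries (exact permutation p = 0.2, the smallest that 2 against 3 can give).

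Genes that act with these ligands and receptors were read from 6 lists of 36 partner genes in all, of which 34 could be tested. Pbrm1 cKO was higher for 10 and lower for 6 of the 34, with a median log2 fold change of 0.020. The shares of all tested genes are those given above for the members, 15.9% higher and 15.2% lower. Leaving out a library moved these counts, as given in the closing section.

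Co-receptors and other ligands and receptors formed a list of 7 genes, of which none passed the test in DESeq2 over all libraries, and 2 were higher and 3 lower without WT replicate 1. Placental growth factor Pgf, a ligand of FLT1, had 29.9, 62.2 and 50.8 normalized counts in WT, against 23.7, 29.6 and 20.6 in Pbrm1 cKO. The groups did not overlap, and its adjusted p of 0.05 lay just on the upper side of the threshold (log2 fold change -0.95, SE 0.39). edgeR's quasi-likelihood test put it below (-0.93, adjusted p = 0.0308), as did DESeq2 without WT replicate 1 (-1.19, adjusted p = 0.00975). It was not passed without any other single library (adjusted p from 0.0847 to 0.29, with -0.71 without WT replicate 2). The neuropilins, which present VEGF to its receptors and are also expressed outside endothelium, were abundant. Nrp1 had 3292, 2677 and 2513 normalized counts in WT, against 3473, 3429 and 3068 in Pbrm1 cKO (log2 fold change 0.23, SE 0.12, adjusted p = 0.144), and Nrp2 had 854, 934 and 897 against 1060, 1016 and 900 (0.15, SE 0.11, adjusted p = 0.343). Without WT replicate 1, Nrp1 passed (0.36, adjusted p = 0.000623) and Nrp2 did not (0.11, adjusted p = 0.488). Nrp1 in WT replicate 1 was at 127% and Nrp2 at 93.2% of the mean of the other WT libraries. Tie1, the orphan partner of TEK, had 29.9, 168 and 167 normalized counts in WT, against 56.2, 57.5 and 71.3 in Pbrm1 cKO, an arrangement like that of Tek (-0.98, SE 0.47, adjusted p = 0.101). It was -1.44 (adjusted p = 4.88e-08) without WT replicate 1 and -0.67 (adjusted p = 0.429) without WT replicate 2.

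VEGF-C is made as a precursor that proteases must cut before it can activate its receptors fully, and the genes of this step were 4 higher and 1 lower of 7. Ccbe1, the secreted scaffold that speeds the cut, rose from 123, 133 and 105 to 199, 210 and 168 normalized counts (log2 fold change 0.68, SE 0.19, DESeq2 adjusted p = 0.00227). Adamts3, the protease that makes the cut, rose from 31.0, 22.2 and 27.0 to 73.0, 60.7 and 47.8 (1.18, SE 0.34, adjusted p = 0.00279), a call lost without Pbrm1 cKO replicate 1 (adjusted p = 0.0565). The groups did not overlap for either gene, and both were higher in the libraries in which Vegfc was lower. Furin, a proprotein convertase that processes VEGF-C within the secretory pathway, rose 1.75-fold (0.80, SE 0.15, adjusted p = 4.37e-07). Pcsk5, another convertase, fell to 45.0% of the WT level, from 309, 384 and 317 to 133, 151 and 170 normalized counts (-1.15, SE 0.17, adjusted p = 3.46e-10). Ctsd, the lysosomal protease cathepsin D, which can also cut VEGF-C and VEGF-D, rose from 3871 ± 593 to 9761 ± 200 normalized counts (1.33, SE 0.12, adjusted p = 5.48e-27). Ctsd is abundant in macrophages, whose markers were raised in the same libraries, and their part in its rise was not tested.

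**Figure D5:**
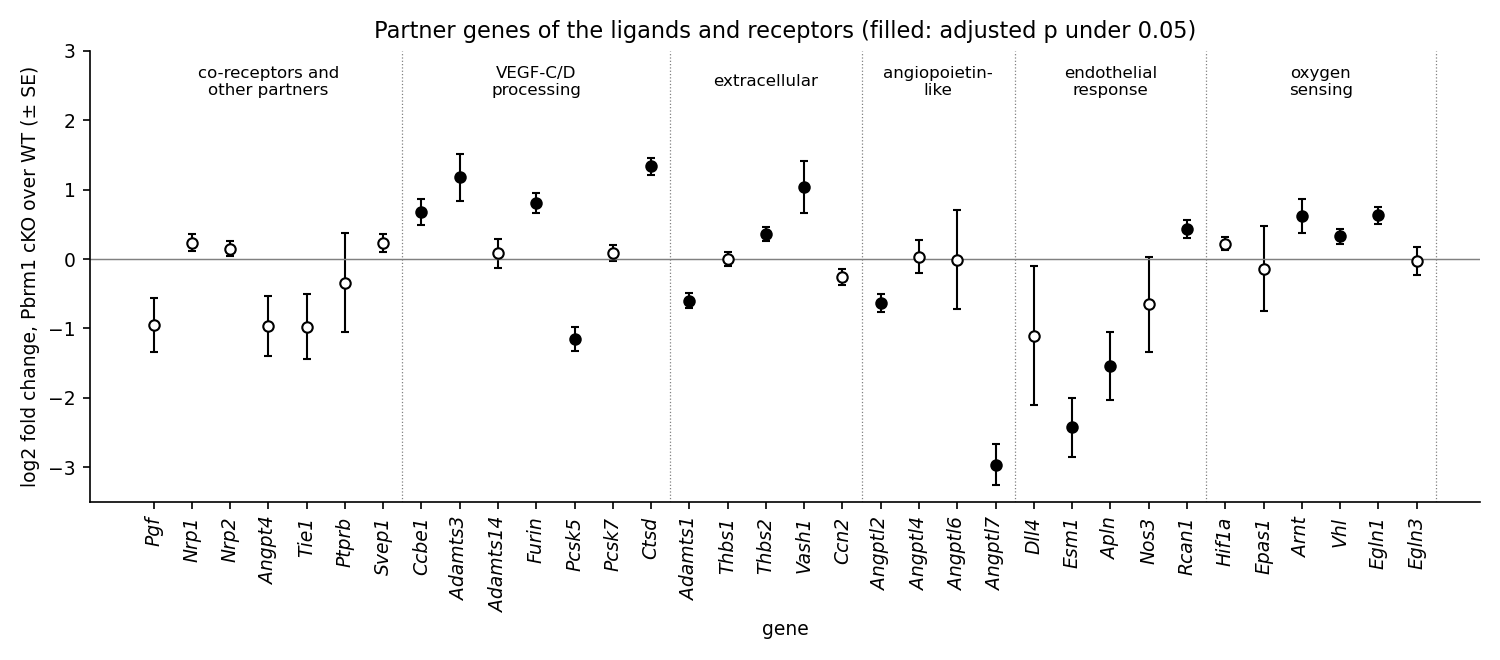
Log2 fold change of Pbrm1 cKO over WT (± SE, DESeq2, all 6 libraries) for the 34 tested partner genes in their 6 lists, filled where the adjusted p was under 0.05. In the list of VEGF-C and VEGF-D processing 4 genes lie above and 1 below 0 among those called, and Angptl7, Esm1 and Apln have the lowest called values.

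Extracellular proteins that bind VEGF or oppose vessel growth were 2 higher and 1 lower of 5. Adamts1, a secreted protease that can sequester VEGF-A, fell from 2049, 1904 and 1746 to 1313, 1250 and 1202 normalized counts (log2 fold change -0.60, SE 0.10, DESeq2 adjusted p = 8.04e-08). Thbs2, a thrombospondin that inhibits angiogenesis, rose 1.29-fold (0.36, SE 0.10, adjusted p = 0.00175). Vash1, vasohibin, an inhibitor that endothelium makes in response to VEGF, rose from 26.7, 24.4 and 21.6 to 64.1, 51.9 and 33.8 normalized counts (1.04, SE 0.38, adjusted p = 0.0219). Its call was lost without WT replicate 2 or 3 and without Pbrm1 cKO replicate 1 or 2 (adjusted p from 0.074 to 0.194).

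Angiopoietin-like genes do not signal through TEK, and 2 of the 4 that could be tested were lower. Angptl7 fell from 112, 168 and 161 to 16.8, 19.2 and 20.6 normalized counts, 12.8% of the WT level (log2 fold change -2.96, SE 0.30, DESeq2 adjusted p = 5.98e-21). This was the lowest log2 fold change among the called members and partner genes. Angptl2 fell from 477 ± 27.8 to 307 ± 9.24 (-0.63, SE 0.13, adjusted p = 5.47e-06).

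Genes known to respond to VEGF or to mark sprouting endothelium were 1 higher and 2 lower of 5. Esm1, a tip cell gene, had 59.9, 219 and 269 normalized counts in WT, against 33.5, 39.2 and 29.1 in Pbrm1 cKO. All WT libraries, WT replicate 1 included, were above all Pbrm1 cKO libraries (log2 fold change -2.43, SE 0.43, DESeq2 adjusted p = 2.57e-07). Apln, the ligand apelin of tip cells, had 21.4, 68.8 and 59.5 normalized counts in WT, against 14.8, 23.2 and 13.1 in Pbrm1 cKO, with WT replicate 1 inside the range of Pbrm1 cKO (-1.54, SE 0.49, adjusted p = 0.00714). Its call was lost without WT replicate 2 or 3 and without Pbrm1 cKO replicate 1 or 3 (adjusted p from 0.0567 to 0.112). Rcan1, a calcineurin inhibitor induced by VEGF in endothelium but also expressed in other cells, rose 1.35-fold (0.44, SE 0.13, adjusted p = 0.00496), a call lost without Pbrm1 cKO replicate 2 (adjusted p = 0.0697). The endothelial marker sum, given above, was lower in Pbrm1 cKO than in WT replicates 2 and 3 but not than in WT replicate 1, and its part in the lower level of both tip cell genes was not tested.

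Oxygen sensing genes control Vegfa transcription, and 3 of the 6 were higher. Egln1, the prolyl hydroxylase that marks hypoxia-inducible factors for destruction, rose from 1053, 892 and 1121 to 1679, 1616 and 1458 normalized counts (log2 fold change 0.63, SE 0.12, DESeq2 adjusted p = 1.78e-06). Vhl, the ubiquitin ligase subunit that acts after it, rose 1.25-fold (0.33, SE 0.11, adjusted p = 0.0151), a call lost without WT replicate 3 or any 1 of the Pbrm1 cKO libraries (adjusted p from 0.0523 to 0.0902). Arnt, the shared partner of these factors, had 310, 333 and 643 normalized counts in WT, against 635, 728 and 615 in Pbrm1 cKO (0.62, SE 0.24, adjusted p = 0.0328). WT replicate 3 lay within the range of Pbrm1 cKO, and the call was lost without WT replicate 1 or 2 or any 1 of the Pbrm1 cKO libraries (adjusted p from 0.0773 to 0.392) and in edgeR (adjusted p = 0.0696). The log2 fold change was 1.03 (adjusted p = 1.05e-11) without WT replicate 3. With WT replicate 1 left out, 2 of the 6 were higher and 1 was lower. The lower gene was Epas1, which encodes HIF2A and is named after its values were seen (-0.56, adjusted p = 0.00229, against -0.14 with adjusted p = 0.905 over all libraries). These are transcript levels of a pathway regulated mainly at the protein level.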

How the data were processed

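The deposited table holds raw counts of reads per gene, which the authors made by trimming single-end reads with cutadapt, mapping to GRCm38 (GRCm38.p5 per the submitters' notes) with HISAT2 and counting by strand with featureCounts 1.6.4 on GENCODE release 18. The labels describe random and poly(T) priming with transcript depletion, and the methods of the study poly(A) selection. Groups were compared by the Wald test of DESeq2 1.42.0 (R 4.3.3, 3 against 3 libraries, no covariates, default filtering), and every adjusted p is from DESeq2 unless edgeR 4.0.16 or limma 3.58.1 is named. TPM was computed from the counts and the exon length in the table. Ratios used a pseudocount of 0.5 and exact permutation tests (scipy 1.17.1). Alternatives were other tools, scalings and filters, the study's thresholds, a replicate block and the removal of each library. The steps were tested on simulated counts with the same spread in every library, which does not cover a deviating library such as WT replicate 1. Depth limits precision through counting error: 3 counts, the most that a count of 0 allows, are 0.164 to 0.226 CPM. Symbols were matched for 99.7% of identifiers, and overlapping genes were looked up in GENCODE release 21. The rule for naming allowed all 10 members, each partner gene past the threshold plus Pgf, Nrp1, Nrp2, Tie1 and Ccbe1, the defining markers, and Pbrm1. The members and lists were chosen with earlier results of these data known. A gene of the partner lists is not reported here.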

Additional observations from a re-analysis of the deposited data

How the results depend on the processing

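Vegfa and Vegfc kept their direction and call under all 14 alternatives. The number of members lower in Pbrm1 cKO was 2, and it became 1 in edgeR, in limma voom, without a filter on low counts and under the study's thresholds (1.5-fold, p of 0.01, adjusted p of 0.1), as the call of Flt1 was lost. Leaving out single libraries gave 1 to 5 lower members, with 5 without WT replicate 1. With library weights in limma voom, added after the data were seen, 2 members were higher and 3 lower, 13 partner genes were higher and 10 lower, and 3770 of all genes were higher and 3493 lower. Over removals of single libraries, 6 to 11 partner genes were higher and 5 to 11 lower, as 1924 to 2926 of all genes were higher and 1801 to 2646 lower. The study's thresholds left 1665 higher and 1452 lower genes of all, against 2774 and 2658. Over the same removals the log2 fold change of Vegfd ran from -0.38 to 0.22, above 0 without WT replicate 3, and that of Flt4 from -0.18 to 0.077, above 0 without WT replicate 2 and, at 0.011, without Pbrm1 cKO replicate 1. The cause of these changes was not tested.

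Replicate numbers did not pair the libraries (correlations of deviations 0.040, -0.039 and -0.00093 over 14068 genes). With the replicate block, 1 member was lower, 8 partner genes were higher and 6 lower, and 2159 genes were higher and 1811 lower. The calls of Flt1, Vash1 and Vhl were lost (adjusted p = 0.0882, 0.115 and 0.0852). The difference in log2 ratio with the replicate pairs was 1.84 for Angpt2 to Angpt1 and 0.65 for the receptors to the endothelial markers (p = 0.25 each, exact permutation of the signs of 3 pairs). Angpt1 was removed by the filter on low counts, so edgeR, limma and the fit on filtered genes gave no value for it. With at most 12 counts per library for Angpt1 and 21 for Vegfd, depth limits these 2 genes most.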
